A study of Mus musculus with 10 samples.

Results

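The genes described here were 47 transcription factors and cofactors of the homeodomain and related regional classes, among 54838 gene identifiers in the count tables. They were chosen as the Ensembl identifiers whose GRCm38 symbol belongs to the LIM homeodomain, LIM-only, TALE, Dlx, Cut, Otx and Emx, POU, zinc finger homeodomain, Hopx or Tshz classes. All 47 had a row in every table, and 45 passed the expression filter of more than 1 CPM (counts scaled to library size) in at least 2 libraries, which left Lhx8 and Tgif2 untested.

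The study used translating ribosome affinity purification (TRAP), in which an EGFP-tagged ribosomal protein L10a is precipitated together with the mRNAs being translated. Both groups came from hippocampi of male C57BL/6 mice about 10 weeks old that carried Drd2-Cre and a Cre-dependent allele of the tag (Drd2-Cre;Eef1a1LSL.eGFPL10a/+), so the 2 groups shared genotype and differed in the dissected region. The hippocampus was cut by length into a dorsal portion and a longer ventral portion, the medial part of the ventral pole was removed, and each of the 5 dorsal and 5 ventral libraries held the pooled tissue of 5 mice. Per the study's methods 25 mice were dissected in all, so the dorsal and ventral pools drew on the same animals, and the sources used here do not say which pools share mice. The Cre line also labels some hippocampal GABAergic interneurons and may bring in subicular neurons, so the libraries are enriched for dentate mossy cells, the excitatory neurons of the hilus, and are not pure. In such bulk libraries, fewer cells of a type and less RNA per cell cannot be told apart.

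Homeodomain proteins bind DNA through a helix-turn-helix domain, and their combinations pattern the embryonic forebrain and later hold neuronal subtype identity. TALE proteins act as partners of other homeodomain factors, LIM-only proteins carry the protein-binding LIM domains without a homeodomain, and Tshz, Zeb and Zfhx proteins combine homeodomains with zinc fingers. In the hippocampus, Lhx2, Emx1 and Emx2 are known for their roles in forming the dorsal telencephalon, whereas Dlx and Lhx6 mark the interneuron lineages that arise in the ventral forebrain.

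Counts on genes ranged from 11138676 to 20594364 per library. Of the mossy cell markers, 8 of 9 passed the filter, and their summed level was 1734 to 2010 CPM (dorsal) and 1804 to 2119 CPM (ventral). Of these 8, 3 were dorsal-enriched and 3 ventral-enriched (median log2 fold change 0.17), and summed per kilobase of exon the list was at 178 ± 12 in dorsal and 454 ± 56.4 CPM per kb in ventral libraries (SD, n = 5). Among them Calb2, which encodes calretinin and marks ventral mossy cells, averaged 65.0 CPM in the dorsal and 615 CPM in the ventral group. The regions also differed in ways that run beside every result below: 27.0 ± 5.09% of dorsal and 14.4 ± 3.0% of ventral read pairs fell outside genes (SD, n = 5), with no overlap between groups (two-sided exact permutation p = 0.00794, the smallest 5 against 5 can give). Mitochondrially encoded mRNAs summed to 2962 ± 315 CPM in the dorsal group against 789 ± 306 CPM in the ventral group (SD, n = 5), again without overlap (two-sided exact permutation p = 0.00794). Summed astrocyte markers were 1888 to 2139 CPM in dorsal and 683 to 1253 CPM in ventral libraries, and oligodendrocyte markers 2195 to 2569 and 791 to 1451 CPM, each without overlap. Thalamus and habenula markers summed to 440 to 537 CPM in dorsal and 132 to 269 CPM in ventral libraries, also without overlap (two-sided exact permutation p = 0.00794), although 1 of the 8 tested was dorsal-enriched and 2 were ventral-enriched. Subiculum markers were low, at 14.2 to 29.5 CPM in dorsal and 11.3 to 15.6 CPM in ventral libraries (two-sided exact permutation p = 0.0397), with 2 of 5 dorsal-enriched. The part of these marker lists and of the mitochondrial mRNAs in the members' differences was not tested. No gene of any cell type marker list was at 0 in all libraries.

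Upstream sequences are shown as examples for 4 called members, 2 from each side, each with its RefSeq start within 2 bases of the annotated gene start. No difference between the regions rests on them. Each run is the 250 bases before the start (RefSeq, GRCm38.p6), 5′ to 3′ on the gene's strand.
Isl1 (chr13:116309689-116309938, minus strand): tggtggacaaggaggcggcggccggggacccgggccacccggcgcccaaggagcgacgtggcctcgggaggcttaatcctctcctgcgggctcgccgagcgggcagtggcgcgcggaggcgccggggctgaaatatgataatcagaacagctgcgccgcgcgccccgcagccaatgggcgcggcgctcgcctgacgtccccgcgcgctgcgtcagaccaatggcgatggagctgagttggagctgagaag
Hopx (chr5:77115124-77115373, minus strand): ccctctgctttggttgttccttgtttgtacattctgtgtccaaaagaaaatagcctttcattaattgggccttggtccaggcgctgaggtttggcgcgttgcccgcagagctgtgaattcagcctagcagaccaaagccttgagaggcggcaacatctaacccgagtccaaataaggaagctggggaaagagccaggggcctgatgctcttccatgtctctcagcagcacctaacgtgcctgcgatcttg
Lhx1 (chr11:84525535-84525784, minus strand): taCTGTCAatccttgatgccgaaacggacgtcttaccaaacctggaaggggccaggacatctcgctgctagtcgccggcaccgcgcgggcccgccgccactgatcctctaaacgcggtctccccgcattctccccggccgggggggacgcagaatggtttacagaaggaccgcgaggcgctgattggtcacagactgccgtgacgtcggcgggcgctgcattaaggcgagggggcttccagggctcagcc
Tshz3 (chr7:36697868-36698117, plus strand): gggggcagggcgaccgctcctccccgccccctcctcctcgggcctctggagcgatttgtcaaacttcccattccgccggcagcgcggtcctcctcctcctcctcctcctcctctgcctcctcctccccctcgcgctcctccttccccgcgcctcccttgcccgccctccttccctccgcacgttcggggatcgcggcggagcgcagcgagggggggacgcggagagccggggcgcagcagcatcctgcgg
Capitals mark matches, on either strand, to TAATTA, a core read by many homeodomains, TGACAG, read by TALE factors, the octamer ATGCAAAT of POU factors, and CAGGTG, the E-box of Zeb factors, none of which contains another. Of the 4 runs, only that of Lhx1 holds a match, to TGACAG. RefSeq windows were matched for 35 of the 47 members. Neither these nor the windows of all genes were filtered by distance to the annotated gene start, which was 6175 bases for Otx2 and 772000 for Zfhx3. The windows of Cux1, Dlx1, Emx1, Emx2 and Zfhx2 lay wholly within annotated exons. Of the printed runs, that of Lhx1 had 90 of its 250 bases in annotated exons, that of Isl1 1, and those of Hopx and Tshz3 0. Of these 35, 2 held TAATTA (Lmo1 and Otx2), 2 TGACAG (Lhx1 and Lhx9), 0 ATGCAAAT and 3 CAGGTG (Cux2, Pbx2 and Pou6f1). Among 16521 protein-coding genes the shares were 4.39%, 15%, 1.53% and 16.6%, against 5.71%, 5.71%, 0% and 8.57% of the members. The members' windows had a median GC content of 64.0%, beside 56.0% for all, and 24 of 35 had a ratio of observed to expected CpG above 0.6, beside 46.9% of all windows. A missing motif says only that these letters are not in these 250 bases.

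Across the 45 tested members, 11 were dorsal-enriched and 6 ventral-enriched, under a pair of criteria: a Benjamini-Hochberg adjusted p below 0.05, and group means of CPM plus 1 that differ by more than 0.58 on the log2 scale. Over all 16806 tested genes, 15.7% were dorsal-enriched and 9.85% ventral-enriched, and 11.4% and 10.3% of the 13549 protein-coding genes. The other 28 tested members did not pass both criteria. The median log2 fold change (dorsal over ventral, edgeR) was 0.12 over the members and -0.0044 over all tested genes, and the median absolute value was 0.54 and 0.46. A fold change above 0 was found for 26 of the 45 members, beside 49.6% of all tested genes. The 5 dorsal libraries lay wholly above the 5 ventral libraries for 7 members and wholly below for 5, beside 9.81% and 8.36% of all tested genes. By the adjusted p alone, 14 members were higher in dorsal and 9 in ventral libraries, beside 19% and 14.6% of all tested genes. By class, dorsal enrichment took in 5 of 7 zinc finger homeodomain genes and 3 of 7 POU genes, with no ventral-enriched gene in either. Adnp, among the 5, passed the expression filter through dorsal libraries 1 and 2 alone, so only a dorsal call was open to it. Pou3f4, among the 3, also passed that filter only through dorsal libraries, as ventral library 4 alone of its group was over 1 CPM. Pou2f1, another of the 3, lost its call in most fits that left out a library. Ventral enrichment was spread over LIM homeodomain, TALE, Cut, Otx and Emx, and Tshz genes, in 1 or 2 genes each.

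**Figure D1:**
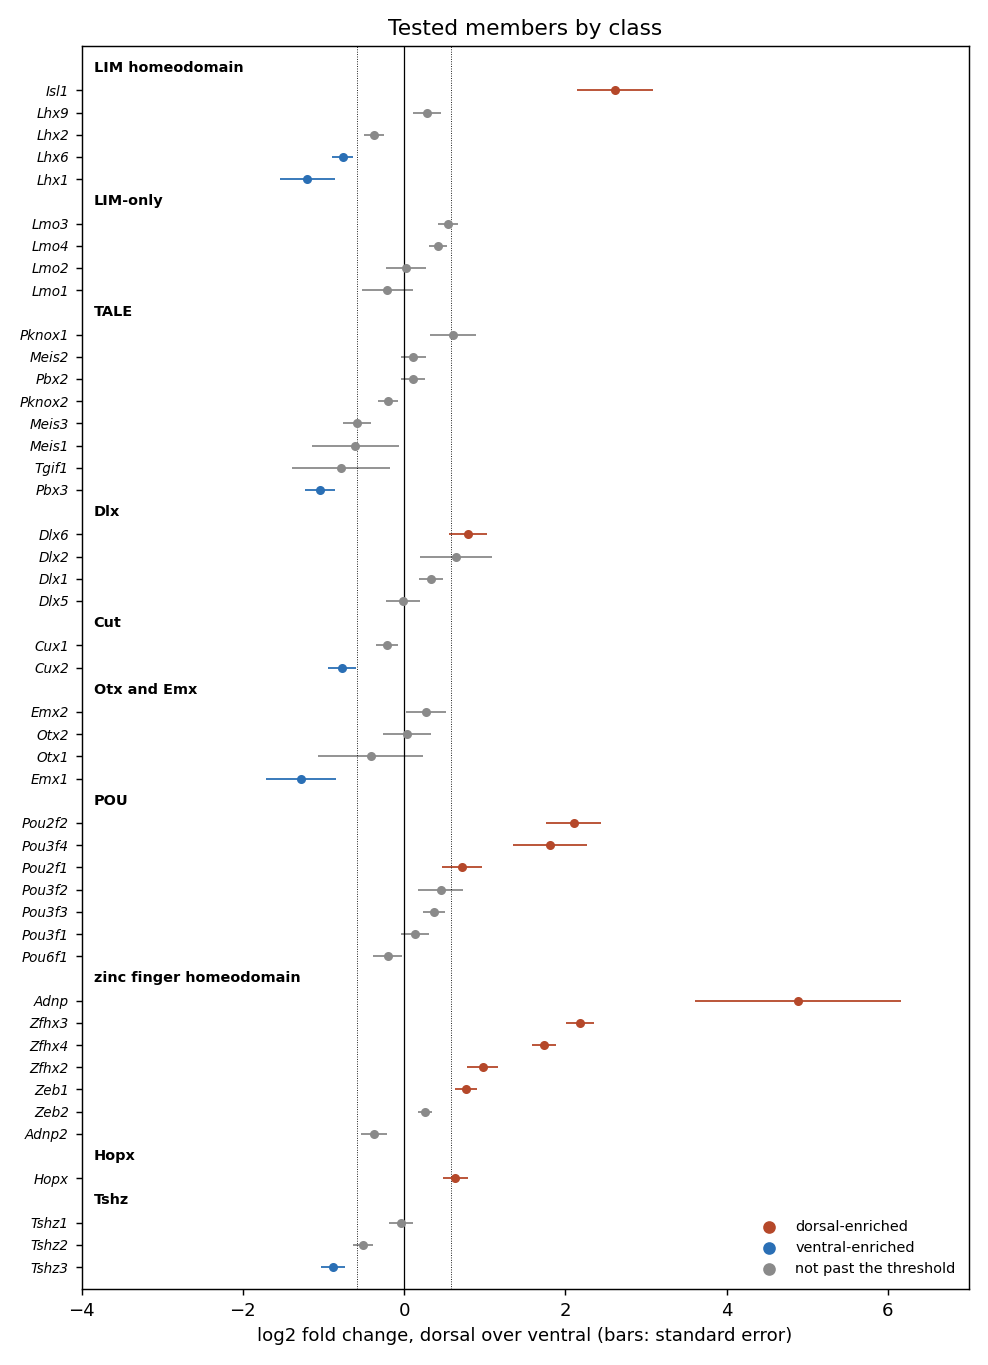
Log2 fold change, dorsal over ventral, of each of the 45 tested members (x axis), grouped by class, with bars for the standard error and dotted lines at 0.58 on either side of 0. The zinc finger homeodomain and POU classes hold 8 of the 11 dorsal-enriched genes (red), and the 6 ventral-enriched genes (blue) are spread over 5 classes. The 8 include Adnp, which passed the expression filter through dorsal libraries alone, and Pou2f1, whose call was lost in most fits that left out a library. They also include Pou3f4, for which ventral library 4 alone of its group was over 1 CPM, so the filter was passed only through dorsal libraries.

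Levels between genes were compared per kilobase of exonic length. The LIM-only genes Lmo4 and Lmo3 stood highest, at 110 and 70.8 CPM per kb over all libraries, followed by Zeb2 at 45.5, Dlx1 at 30.5, Pou3f3 at 27.5, Emx2 at 26.2 and Pbx2 at 26. None of these 7 was called in either direction. The strongest contrasts were found lower on the scale: the Zfhx3 level per kilobase was 3.75 dorsal and 0.838 ventral, and the Isl1 level 2.48 dorsal and 0.488 ventral. Summed over a class, the level per kilobase was 222 ± 20.4 in dorsal and 165 ± 14.1 in ventral libraries for LIM-only genes (SD, n = 5). It was 74.1 ± 3.30 and 55.2 ± 4.39 for zinc finger homeodomain genes, and 13.7 ± 1.13 and 19.5 ± 1.88 for Tshz genes (SD, n = 5). The Tshz sum includes Tshz2, which shares 67.5% of its exonic length with other genes.

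**Figure D2:**
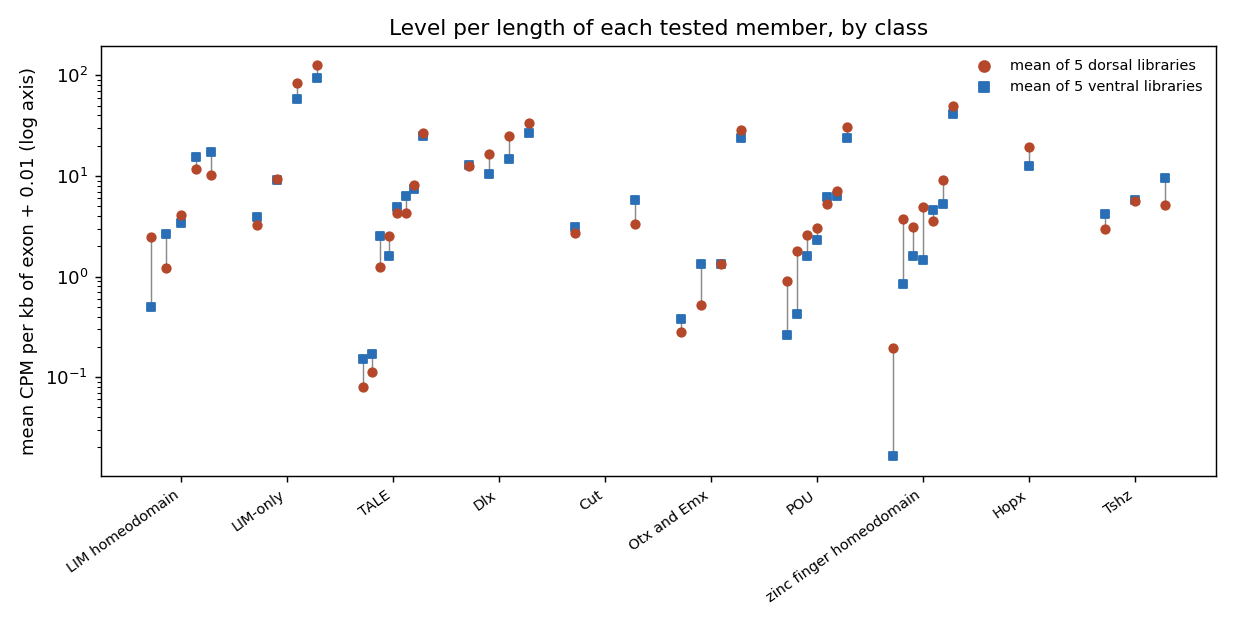
Mean CPM per kilobase of exon plus 0.01 (log axis) of each tested member in the dorsal (circles) and ventral (squares) libraries, by class, with a line joining the 2 means of a gene. Levels run from Adnp, near the floor and of uncertain count, to Lmo4 at 126 dorsal and 93.9 ventral. The widest gaps lie among genes under 5 CPM per kb.

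Among the zinc finger homeodomain genes, Zfhx3 and Zfhx4 had the lowest p-values of all members. Zfhx3 (ENSMUSG00000038872, chr8:107942644-108961630, plus strand), a large factor with several homeodomains that is known from circadian and neuronal differentiation studies, was measured at 77.6, 69.6, 74, 88.9 and 83.1 CPM in dorsal libraries 1 to 5 and 18.9, 25.4, 11.7, 18.4 and 13.4 CPM in ventral libraries 1 to 5. The lowest dorsal value was well over the highest ventral value, and neither group had a library that stood apart. The log2 fold change was 2.18 ± 0.17 (SE), adjusted p = 4.24e-06, a 4.53-fold higher level in dorsal libraries, and the p-value ranked 13 among 16806 tested genes. Its paralog Zfhx4 (ENSMUSG00000025255, chr3:5218526-5415857, plus strand) was at 66.8, 73.7, 95.5, 70.6 and 79.6 CPM in dorsal libraries 1 to 5 and 26.6, 16.2, 21.7, 24.1 and 25.8 CPM in ventral libraries 1 to 5. Again the dorsal libraries all lay above the ventral ones, with dorsal library 3 the highest. The difference was 1.73 ± 0.15 (SE), adjusted p = 1.03e-05, which ranked 18 by p-value. Zfhx2 (ENSMUSG00000040721, chr14:55060262-55092324, minus strand), the third paralog, was read at 38.8, 54.7, 65.3, 61.3 and 63.1 CPM in dorsal libraries 1 to 5 and 22.4, 19.6, 40.2, 27 and 35.4 CPM in ventral libraries 1 to 5. Dorsal library 1 fell below ventral library 3, so the groups overlapped, and the fold change was 0.97 ± 0.20 (SE), adjusted p = 0.0024. The antisense transcript Zfhx2os shares 17.9% of the Zfhx2 exonic length, and averaged at most 0.164 CPM in either group.

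Zeb1 (ENSMUSG00000024238, chr18:5591860-5775467, plus strand), an E-box repressor best known for the epithelial to mesenchymal transition, was at 111, 96.7, 77.1, 93.6 and 84.8 CPM in dorsal libraries 1 to 5 and 56, 41.3, 60.6, 50.3 and 62.1 CPM in ventral libraries 1 to 5. All dorsal values exceeded all ventral values, the change being 0.77 ± 0.14 (SE), adjusted p = 0.00113. Zeb2, the related repressor that guides cortical interneurons and myelination, was the highest of the class per kilobase and was measured at 1041, 867, 1011, 1001 and 1021 CPM in dorsal libraries 1 to 5 and 821, 858, 948, 759 and 749 CPM in ventral libraries 1 to 5. Its groups touched only through dorsal library 2, which lay among the ventral values. Zeb2 passed the adjusted p but not the fold, at 0.26 ± 0.09 (SE), adjusted p = 0.0392, and once GC content and exonic length were corrected for its sign turned, to -0.29 (adjusted p = 0.0326), a correction that moved the median of all genes to -0.15. Gm10125, an antisense transcript that shares 1.93% of Zeb1's exonic length, was also higher in dorsal libraries (1.05 ± 0.32 (SE), adjusted p = 0.0212), and Zeb2os was not (-0.26 ± 0.32 (SE), adjusted p = 0.561).

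Adnp (ENSMUSG00000051149, chr2:168180986-168207112, minus strand), a chromatin protein needed in brain development, had 70 counts in all dorsal and 2 in all ventral libraries. The levels were 1.22, 2.4, 0.34, 0.599 and 0.392 CPM in dorsal libraries 1 to 5 and 0, 0.0879, 0.0843, 0 and 0 CPM in ventral libraries 1 to 5. Dorsal values were low but above every ventral value, and dorsal library 2 was the highest. The ratio of summed counts was 39.1, with a 95% interval from counting error alone of 10.4 to 329, and the fitted difference (adjusted p = 0.0128) rested on 2 libraries above 1 CPM, so that the gene was not tested without dorsal library 1 or 2. A readthrough gene on the same strand, at 0 in all libraries, shares 82.1% of Adnp's exonic length. Reads there may have been assigned to neither gene, so the Adnp count is uncertain and its level may be understated. The paralog Adnp2 was 17.9 ± 1.96 CPM in the dorsal and 23 ± 4.2 CPM in the ventral group (SD, n = 5), with no call (-0.37 ± 0.16 (SE), adjusted p = 0.0925).

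Of the 7 POU genes, 6 had a fold change above 0 and 3 were called. Pou2f2 (ENSMUSG00000008496, chr7:25087344-25179726, minus strand), the Oct-2 factor of B cells and neurons, was at 15.3, 7.26, 23.9, 13.8 and 14 CPM in dorsal libraries 1 to 5 and 2.27, 2.28, 5.06, 3.6 and 4.01 CPM in ventral libraries 1 to 5. The dorsal libraries ranged widely, with library 2 low and library 3 high, but none reached down to the ventral values. The fold change was 2.11 ± 0.34 (SE), adjusted p = 0.000607. Pou3f4 (ENSMUSG00000056854, chrX:110814280-110817207, plus strand), a neural POU factor required in the inner ear, was at 0.845, 2.85, 3.47, 2.28 and 3.53 CPM in dorsal libraries 1 to 5 and 0.831, 0.615, 0.253, 1.45 and 0.518 CPM in ventral libraries 1 to 5. Dorsal library 1 matched the ventral values and the other dorsal libraries were above them, for a fold change of 1.81 ± 0.46 (SE), adjusted p = 0.00826. Of the ventral libraries only library 4 was over 1 CPM, so Pou3f4 passed the expression filter only through its dorsal libraries. Pou2f1 (ENSMUSG00000026565, chr1:165865154-166002678, minus strand), the broadly expressed Oct-1, was measured at 28.2, 60.0, 47.7, 38.5 and 41 CPM in dorsal libraries 1 to 5 and 18.4, 15.4, 40.8, 23.9 and 33.3 CPM in ventral libraries 1 to 5. The groups overlapped, with ventral library 3 above dorsal libraries 1 and 4 and ventral library 5 above dorsal library 1, and the call was the weakest of the dorsal ones (0.72 ± 0.25 (SE), adjusted p = 0.0375). It was lost in 7 of the 10 fits that left out 1 library, dorsal 2, 3, 4 or 5 or ventral 1, 2 or 4 (for example 0.57 (adjusted p = 0.0932) without dorsal library 2), and with the quasi-likelihood dispersions of edgeR 3. Cd247, on the other strand, shares 18.1% of the Pou2f1 exonic length and was under 1 CPM.

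Pou3f3, which together with Pou3f2 specifies upper-layer and hippocampal neurons, was the highest POU gene per kilobase, at 298, 200, 169, 253 and 228 CPM in dorsal libraries 1 to 5 and 175, 181, 206, 167 and 158 CPM in ventral libraries 1 to 5. Dorsal libraries 1, 4 and 5 were above the ventral range and the others within it, with no call (0.37 ± 0.14 (SE), adjusted p = 0.0543). The remaining POU genes had fold changes from -0.20 (Pou6f1) to 0.46 (Pou3f2), with Pou3f1 between them, and none passed the adjusted p.

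**Figure D3:**
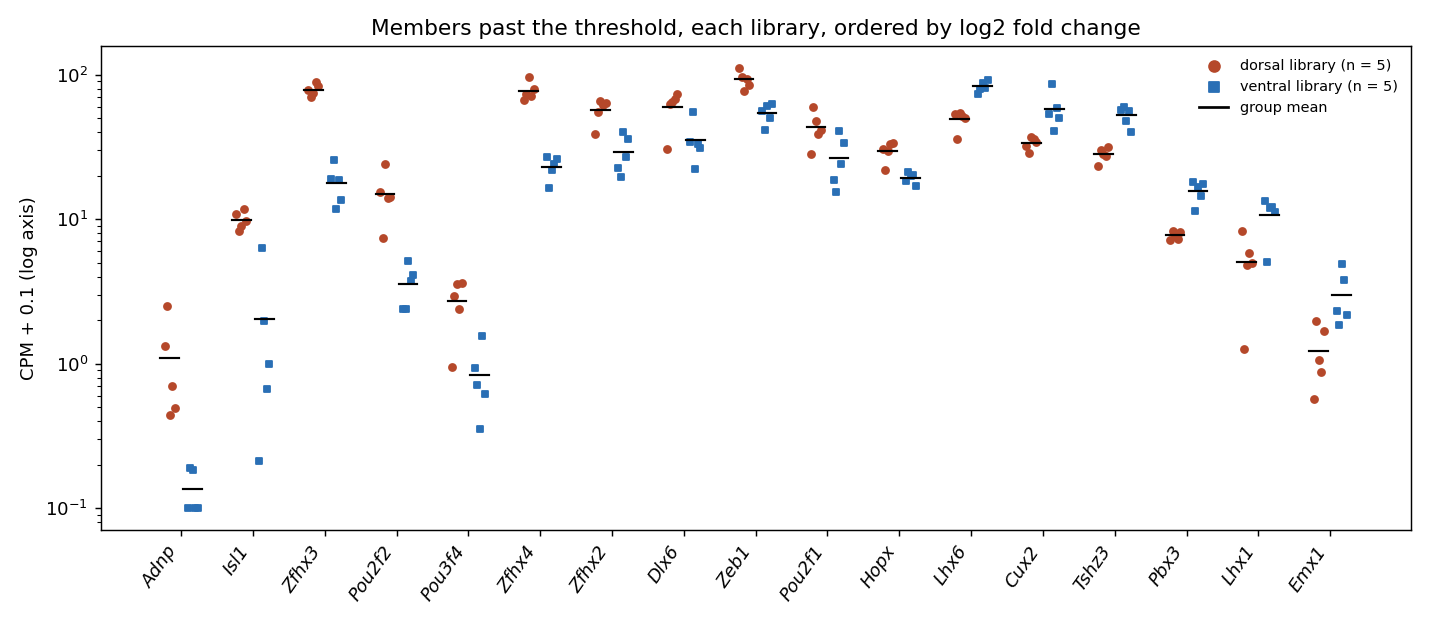
CPM plus 0.1 (log axis) of the 17 called members in each dorsal (circles) and ventral (squares) library, ordered by log2 fold change, with black bars for the group means. Zfhx3 and Zfhx4 are apart by the widest margin relative to their spread, whereas Pou2f1, Dlx6, Pou3f4, Zfhx2, Lhx1 and Emx1 overlap between groups.

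The LIM homeodomain genes went both ways. Isl1 (ENSMUSG00000042258, chr13:116298281-116309689, minus strand), which specifies motor neurons and striatal neurons, was measured at 10.8, 8.17, 8.84, 11.7 and 9.57 CPM in dorsal libraries 1 to 5 and 0.111, 6.24, 1.85, 0.568 and 0.895 CPM in ventral libraries 1 to 5. Ventral library 2 stood apart from the other ventral libraries, though it was still below every dorsal one. The fold change was 2.62 ± 0.47 (SE), adjusted p = 0.00125, and it rose to 3.64 (adjusted p = 5.53e-05) without that library. Summed striatal markers, whose own members include the homeodomain gene Six3, were 66.8 to 111 CPM in dorsal and 43.7 to 77.9 CPM in ventral libraries (two-sided exact permutation p = 0.0714), and their part in the Isl1 difference was not tested. In the ventral direction, Lhx6 (ENSMUSG00000026890, chr2:36081953-36105408, minus strand), which specifies interneurons from the medial ganglionic eminence, was at 53.6, 35.6, 54.3, 51.7 and 49.6 CPM in dorsal libraries 1 to 5 and 73.2, 79.2, 87.8, 80.8 and 92.3 CPM in ventral libraries 1 to 5. No dorsal library reached the ventral values and dorsal library 2 was the lowest of all. The difference was -0.76 ± 0.13 (SE), adjusted p = 0.000967. Summed interneuron markers were 3720 to 4824 CPM in dorsal and 4609 to 5884 CPM in ventral libraries (two-sided exact permutation p = 0.0317), with 4 of 15 ventral-enriched and none dorsal-enriched, and their part in the Lhx6 difference was not tested.

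Lhx1 (ENSMUSG00000018698, chr11:84518284-84525535, minus strand), a marker of Cajal-Retzius cells and other early neurons, was at 8.17, 1.17, 4.69, 5.69 and 4.86 CPM in dorsal libraries 1 to 5 and 13.2, 4.92, 11.9, 12 and 11.2 CPM in ventral libraries 1 to 5. The ventral libraries were higher except ventral library 2, which lay within the dorsal range, and dorsal library 2 was the lowest. The fold change was -1.20 ± 0.34 (SE), adjusted p = 0.0167. Summed Cajal-Retzius markers were 401 to 718 CPM in dorsal and 745 to 897 CPM in ventral libraries, without overlap (two-sided exact permutation p = 0.00794). Of these 6 markers, 2 were ventral-enriched, and the list includes the homeodomain gene Lhx5 and shares Reln with the interneuron list. The part of these markers in the Lhx1 difference was not tested. Lhx2, a selector of cortical identity, passed the adjusted p but not the fold, at 51.7 ± 4.51 CPM in the dorsal and 67.1 ± 8.78 CPM in the ventral group (SD, n = 5; -0.38 ± 0.12 (SE), adjusted p = 0.0295). Lhx9 was not called (0.28 ± 0.17 (SE), adjusted p = 0.225). Lhx8, a factor of cholinergic neurons, had 20 counts in dorsal and 5 in ventral libraries and no library above 1 CPM.

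The LIM-only genes were abundant and held no call. Lmo4, the most abundant member per kilobase and a partner of LIM domain binding proteins, was at 474, 346, 424, 490 and 484 CPM in dorsal libraries 1 to 5 and 354, 386, 323, 313 and 282 CPM in ventral libraries 1 to 5. Most dorsal libraries exceeded all ventral ones, and dorsal library 2 was within the ventral range. Lmo4 passed the adjusted p but not the fold, at 0.42 ± 0.12 (SE), adjusted p = 0.0136. Lmo3 did the same, at 431 ± 25 CPM in the dorsal and 296 ± 60.2 CPM in the ventral group (SD, n = 5; 0.54 ± 0.12 (SE), adjusted p = 0.00465), and was called without ventral library 3 (0.66 (adjusted p = 0.000362)) and with upper-quartile scaling. Lmo1 and Lmo2 did not pass, at -0.21 ± 0.32 (SE) and 0.02 ± 0.25 (SE). Among the 6 cofactors of LIM proteins, all tested, Ldb2 was ventral-enriched at -1.57 ± 0.12 (SE), adjusted p = 3.31e-06, from 28 ± 3.28 CPM in the dorsal and 83.5 ± 5.53 CPM in the ventral group (SD, n = 5), and the other 5 were not called.

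Of the 8 tested TALE genes, only Pbx3 was called. Pbx3 (ENSMUSG00000038718, chr2:34171457-34373142, minus strand), a cofactor that raises the DNA selectivity of other homeodomain proteins, was at 7.04, 8.17, 7.48, 7.19 and 8.08 CPM in dorsal libraries 1 to 5 and 17.9, 11.3, 16.4, 14.3 and 17.4 CPM in ventral libraries 1 to 5. The dorsal values were tightly grouped, and every ventral value was above them. The fold change was -1.05 ± 0.19 (SE), adjusted p = 0.00118, a 2.06-fold higher ventral level. Its paralog Pbx2, the highest TALE gene per kilobase, was at 86.6, 64.1, 126, 102 and 112 CPM in dorsal libraries 1 to 5 and 90.2, 94, 88.1, 89.9 and 92.3 CPM in ventral libraries 1 to 5. Here the ventral values were tightly grouped inside a wide dorsal range, with no call (0.11 ± 0.15 (SE), adjusted p = 0.596). Meis3 passed the adjusted p, at -0.58 ± 0.17 (SE), adjusted p = 0.0208, but its means of CPM plus 1 differed by less than 0.58 on the log2 scale, and it was called when edgeR's own fold change set the threshold and when ventral library 3 was left out. Meis1, Meis2, Pknox1, Pknox2 and Tgif1 were not called, with fold changes from -0.78 (Tgif1) to 0.61 (Pknox1). Pknox1 became dorsal-enriched without dorsal library 2 (0.76 (adjusted p = 0.0451)). Tgif2 had 29 counts in dorsal and 2 in ventral libraries, most of the dorsal ones in library 1, and shares 56.7% of its exonic length with an opposite-strand gene, so its count is uncertain.

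The Dlx genes, which drive GABAergic differentiation from the ganglionic eminences, are paired in the genome, and 1 of the 4 was called. Dlx6 (ENSMUSG00000029754, chr6:6863334-6868568, plus strand) was at 30.4, 62.5, 64.2, 68 and 73 CPM in dorsal libraries 1 to 5 and 34.1, 55.2, 22.1, 32.8 and 31.1 CPM in ventral libraries 1 to 5. The groups overlapped because dorsal library 1 was among the ventral values, and the other dorsal libraries were above all ventral ones. The difference was 0.79 ± 0.23 (SE), adjusted p = 0.0195. Its transcriptional neighbor Dlx6os1, an antisense long noncoding RNA whose span covers Dlx6 without sharing an exon, was at 171, 148, 109, 144 and 136 CPM in dorsal libraries 1 to 5 and 218, 245, 252, 175 and 190 CPM in ventral libraries 1 to 5. All ventral values lay above all dorsal values, so the antisense RNA was ventral-enriched (-0.61 ± 0.13 (SE), adjusted p = 0.0043) while Dlx6 was dorsal-enriched. The sources used here do not state whether counting used strand.

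Dlx1, the most abundant Dlx gene per kilobase, was at 231, 181, 146, 187 and 173 CPM in dorsal libraries 1 to 5 and 150, 197, 117, 136 and 128 CPM in ventral libraries 1 to 5. The ranges overlapped broadly, with no call (0.33 ± 0.15 (SE), adjusted p = 0.0963). Dlx2 spread from 8.16 to 72.8 CPM within the dorsal libraries alone and was not called (0.65 ± 0.44 (SE), adjusted p = 0.276). Dlx5, the genomic partner of Dlx6, was not called, at 28.2 ± 4.3 CPM in the dorsal and 29.4 ± 10.8 CPM in the ventral group (SD, n = 5; -0.01 ± 0.21 (SE), adjusted p = 0.967). The interneuron markers given beside Lhx6 were higher in ventral libraries, the direction opposite to Dlx6, and their part in the Dlx6 difference was not tested.

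**Figure D4:**
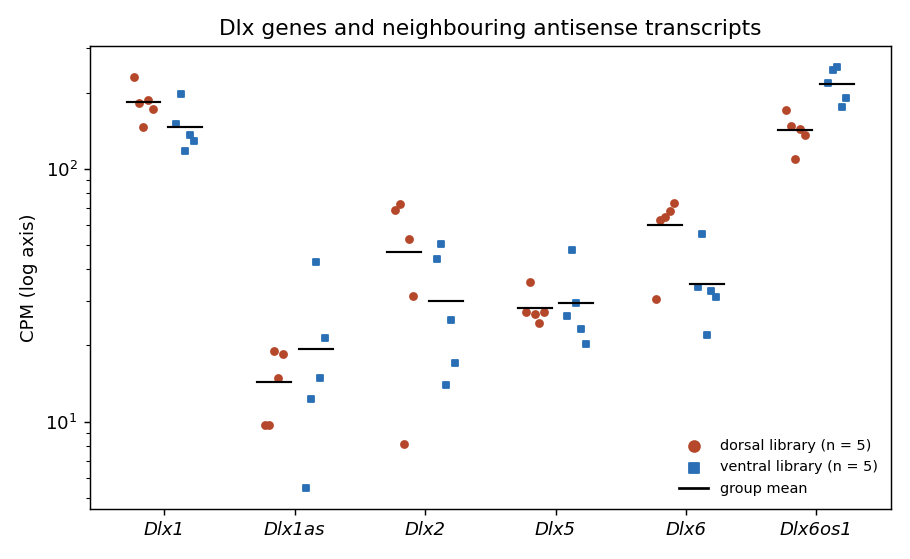
CPM (log axis) of the 4 Dlx genes and the antisense transcripts Dlx1as and Dlx6os1 in each dorsal (circles) and ventral (squares) library, with black bars for the group means. Dlx6 is higher in dorsal and Dlx6os1 higher in ventral libraries, and Dlx2 has the widest dorsal range, from 8.16 to 72.8 CPM.

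Cux2 (ENSMUSG00000042589, chr5:121856366-122050102, minus strand), the Cut factor of upper-layer cortical neurons, was at 31.7, 28.5, 36.9, 35.8 and 33.9 CPM in dorsal libraries 1 to 5 and 53.1, 85.4, 40.5, 58.4 and 50.0 CPM in ventral libraries 1 to 5. Ventral library 2 was the highest, and the lowest ventral library was still above all dorsal ones. The fold change was -0.77 ± 0.18 (SE), adjusted p = 0.00554. Its paralog Cux1 was not called (-0.21 ± 0.13 (SE), adjusted p = 0.243). Emx1 (ENSMUSG00000033726, chr6:85187438-85204462, plus strand), a marker of the cortical excitatory lineage, was low, at 0.47, 1.88, 0.952, 0.779 and 1.57 CPM in dorsal libraries 1 to 5 and 2.22, 1.76, 4.8, 3.66 and 2.07 CPM in ventral libraries 1 to 5. The groups overlapped where dorsal library 2 passed the lowest ventral library. The difference of -1.28 ± 0.44 (SE), adjusted p = 0.0355 was lost in 6 of the 10 fits that left out 1 library, dorsal 1, 3, 4 or 5 or ventral 3 or 4 (for example -1.14 (adjusted p = 0.0997) without dorsal library 4), and with the dispersions of edgeR 3.

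Emx2, which sets the size of the hippocampal field, was at 81.4, 45.8, 95.7, 104 and 100 CPM in dorsal libraries 1 to 5 and 44, 89.2, 110, 55.4 and 61.1 CPM in ventral libraries 1 to 5. Both groups spanned about the same range, and the gene was not called (0.27 ± 0.25 (SE), adjusted p = 0.426). Its antisense transcript Emx2os, which shares 8.79% of Emx2's exonic length, was dorsal-enriched, at 39.3, 27.4, 39.1, 37.9 and 34.2 CPM in dorsal libraries 1 to 5 and 17.7, 22.7, 26.8, 19.8 and 24.1 CPM in ventral libraries 1 to 5. For Emx2os every dorsal library exceeded every ventral library (0.69 ± 0.16 (SE), adjusted p = 0.00492). Otx2, a gene of the choroid plexus and some inhibitory circuits, was at 5.62 ± 1.87 CPM in the dorsal and 5.61 ± 1.89 CPM in the ventral group (SD, n = 5; 0.03 ± 0.30 (SE), adjusted p = 0.942). Dorsal library 2 had the highest Otx2 of its group, 8.88 CPM. That library also had the highest summed choroid plexus markers, 1052 CPM, where the other libraries had 144 to 688 CPM. Ventral library 3 had 8.68 CPM of Otx2 at a marker sum of 430 CPM, and dorsal library 1 had 5.16 CPM at 688 CPM. The part of these markers was not tested. Otx1 was not called (-0.41 ± 0.65 (SE), adjusted p = 0.651), and it became ventral-enriched without dorsal library 2 (-1.96 (adjusted p = 0.0103)), which held 5.25 CPM where the other dorsal libraries held 0.282 to 0.816 CPM.

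Tshz3 (ENSMUSG00000021217, chr7:36698118-36773553, plus strand), a zinc finger factor of projection neuron development, was at 23.3, 30.2, 28.2, 27.1 and 31.2 CPM in dorsal libraries 1 to 5 and 57.2, 59.8, 47.3, 55.8 and 40.0 CPM in ventral libraries 1 to 5. The groups did not overlap, and the ventral libraries all lay above the dorsal ones. The fold change was -0.88 ± 0.14 (SE), adjusted p = 0.000681, a 1.84-fold higher ventral level. Tshz2 was also without overlap, at 22.8 ± 1.76 CPM in the dorsal and 32.4 ± 2.41 CPM in the ventral group (SD, n = 5), and passed the adjusted p but not the fold (-0.51 ± 0.13 (SE), adjusted p = 0.00843). An opposite-strand gene, at 0 in all libraries, shares 65.2% of the Tshz2 exonic length, so the Tshz2 count is uncertain. Tshz1 was not called (-0.04 ± 0.15 (SE), adjusted p = 0.852). Hopx (ENSMUSG00000059325, chr5:77086988-77115121, minus strand), an atypical homeodomain protein that does not bind DNA and is known from radial glia and astrocyte-like stem cells, was at 30.2, 21.9, 29.5, 32.8 and 33.6 CPM in dorsal libraries 1 to 5 and 18.3, 21.2, 19.7, 20.0 and 16.9 CPM in ventral libraries 1 to 5. The antisense transcript Hopxos shares 27.2% of the Hopx exonic length, and averaged at most 0.231 CPM in either group. For Hopx the dorsal values lay above the ventral values by a narrow margin, set by dorsal library 2. The Hopx fold change was 0.63 ± 0.15 (SE), adjusted p = 0.00691. Without dorsal library 4 or 5 or ventral library 5 the edgeR fold change was 0.59, 0.60 and 0.59, and the means of CPM plus 1 differed by less than 0.58 on the log2 scale, so the call was lost. Astrocyte markers moved in the same direction, 5 of 8 being dorsal-enriched and 1 ventral-enriched, and their part in the Hopx difference was not tested.

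Beyond the members, 124 other homeodomain genes were listed, 123 were among the counted identifiers and 37 were tested. Of these 37, 11 were dorsal-enriched and 6 ventral-enriched, beside 15.7% and 9.85% of all tested genes and 11.4% and 10.3% of protein-coding genes. Their median log2 fold change was 0.15. The largest dorsal values were those of Msx2 (4.50 ± 0.94 (SE)), Prox2 (4.28 ± 1.05 (SE)) and Six3 (3.49 ± 0.71 (SE)), and the largest ventral values those of Six5 (-2.65 ± 0.80 (SE)), Nkx2-3 (-2.57 ± 0.71 (SE)) and Lhx5 (-1.86 ± 0.45 (SE)). Msx2, Prox2 and Six5 averaged below 3 CPM in both groups. Msx2 had 134 counts in dorsal and 6 in ventral libraries, and no ventral library was above 0.236 CPM. It passed the expression filter through dorsal libraries alone, so only a dorsal call was open to it.

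The share of read pairs outside genes did not overlap between the regions, so that region and share cannot be fully told apart. When the fit held that share as a covariate, 5 members were dorsal-enriched, namely Isl1, Zeb1, Zfhx3 and Zfhx4 and, newly past the threshold, Pknox1, and 1 was ventral-enriched, Emx1. Over all tested genes 834 and 339 were past the threshold. The signs of the other 12 called members did not turn, except that of Pou2f1, at -0.18 (adjusted p = 0.836). With GC content and exonic length corrected, Dlx6, Pou2f1 and Hopx lost their calls and 8 dorsal-enriched and 6 ventral-enriched members remained.

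**Figure D5:**
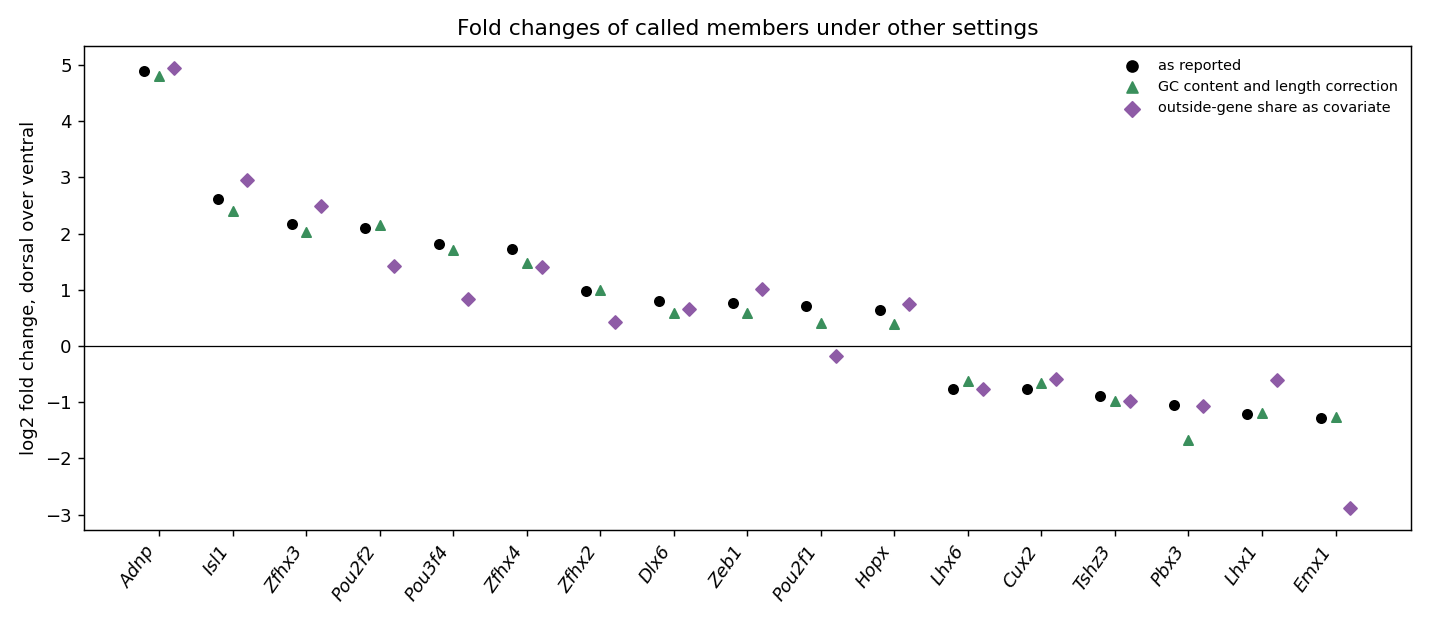
Log2 fold change, dorsal over ventral, of the 17 called members as reported (black circles), with GC content and exonic length corrected (green triangles) and with the outside-gene share as a covariate (purple diamonds). The sign turns in 1 case, Pou2f1 with the covariate, and Emx1 moves furthest, from -1.28 to -2.88.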

How the data were processed

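TRAP RNA of 5 dorsal and 5 ventral pools was amplified and sequenced by the authors in 50-base read pairs, aligned to GRCm38 with STAR 2.5.2b and counted per Ensembl gene with HTSeq 0.7.2 (versions from the study's methods and the submitters' processing notes). The deposited values are raw whole-number counts per gene, 1 table per library, and the authors did not normalize or filter them. Strand use and annotation release are not given in the sources used here. GENCODE vM21 (GRCm38) gave symbols, coordinates and exonic lengths for 54809 of 54838 identifiers.

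edgeR 4.0.16 (R 4.3.3) was used on these counts, for the 16806 genes with over 1 CPM in 2 or more libraries. TMM scaled the library sizes, and the quasi-likelihood test set dorsal against ventral libraries without covariates, its p-values adjusted by Benjamini-Hochberg across every gene tested. Calls required adjusted p under 0.05 together with group means of CPM plus 1 more than 0.58 apart in log2. The standard error of a log2 fold change is its size over the root of F, and CPM values use the TMM-scaled library sizes. The floor of 3 counts is 0.141 to 0.282 CPM per library, and covers counting error only, as reads amplified without molecular identifiers are no independent molecules.

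Replicates are pools numbered in the labels, and where only the numbers tell pools apart, p-values measure the spread between pools. No pair of libraries of a group was a duplicate (chi-square per degree of freedom from 4.36 up). Same-numbered pools did not deviate together (correlations from -0.018 to 0.041), and the sources used here do not say which dorsal and ventral pools share mice, so the numbers were not used as pairs and the groups were fitted as independent. The members and lists were chosen with earlier results of these data known. Every called member and the highest member per kilobase of each class are given by library, other members by mean, range or count, and at most 3 related genes a direction by absolute fold change. Alternatives were other scalings, filters, thresholds and tools (DESeq2 1.42.0), a correction for GC content and length (mgcv 1.9.3), the replicate block, protein-coding genes alone, each library left out and, after seeing the data, the dispersions of edgeR 3. The tests were tried on simulated counts. A first bar for the share of changed genes recovered was missed and was replaced, after its value was seen, by bars on bias, on false calls and on the more abundant genes, and the share of false calls was above the nominal level.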

Additional observations from a re-analysis of the deposited data

Results flagged for a closer look

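In 10 of 90 groups of 5 libraries, over the 45 tested members, the highest or lowest library lay further from the rest than Dixon's 95% limit allows. Chance flags about 1 in 20 groups, and the flags are not independent, because 5 of the 10 came from dorsal library 2. In that library Lhx6 was low at 35.6 CPM (others 49.6 to 54.3) and Zeb2 at 867 CPM (others 1001 to 1041). Dlx5 was high there at 35.7 CPM (others 24.5 to 27.2), as were Otx1 at 5.25 CPM (others 0.282 to 0.816) and Otx2 at 8.88 CPM (others 4.35 to 5.25). In dorsal library 1, Dlx6 was low at 30.4 CPM (others 62.5 to 73.0) and Tgif1 at 0.188 CPM (others 0.408 to 0.471), and in dorsal library 3 Pknox2 was high at 48.5 CPM (others 41.8 to 43.7). In ventral library 2, Lhx1 was low at 4.92 CPM (others 11.2 to 13.2) and Isl1 high at 6.24 CPM (others 0.111 to 1.85).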

How the results depend on the processing

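Over 26 alternatives, Isl1, Zeb1, Zfhx3 and Zfhx4 were called in every one. Dorsal-enriched members numbered 11, and from 9 to 12 when each library was left out in turn, and ventral-enriched members numbered 6, and 5 to 7. With the outside-gene share as a covariate, they numbered 5 and 1, and all genes 834 and 339. GC and length correction raised the count of ventral-enriched genes from 1655 to 2855, or 2899 with the replicate block, and shifted the median of all genes to -0.15. Protein-coding genes alone gave 1643 dorsal-enriched genes, and an adjusted p below 0.01 gave 1498 and 897, in place of 2636 and 1655. With the dispersions of edgeR 3, tried after seeing the data, 10 and 4 members were called, losing Pou2f1, Lhx1 and Emx1. The causes were not tested.

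When the replicate number was added as a block, the members called were 12 and 6, the added one being Dlx2 (0.60, adjusted p = 0.0492), and the counts over all genes were 2656 and 1672. Of the 5 dorsal libraries, 1 correlated best with the ventral library of its own number. With the block and GC and length correction together, 8 and 6 members were called.

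Signs turned for members that were not called, and for Pou2f1 (-0.18 with the covariate). With other settings Dlx5 was 0.013 (DESeq2 size factors), 0.026 (upper-quartile factors), 0.0028 (total counts), 0.0080 (CPM above 1 in at least 5 libraries) and 0.018 (protein-coding genes). Otx2 was -0.011 with the replicate block. With GC and length correction Lmo2 was -0.044, Meis2 -0.14, Otx2 -0.14 and Zeb2 -0.29, and adding the block gave Lhx9 -0.00087, Meis2 -0.14, Otx2 -0.20, Zeb2 -0.29 and Tshz1 0.016. With the covariate Lmo2 was -0.077, Pbx2 -0.092, Otx2 -0.59, Emx2 -0.043 and Tshz1 0.071. Leaving out each library in turn gave Lmo2 from -0.11 to 0.22, Meis2 from -0.015 to 0.22, Dlx5 from -0.13 to 0.21, Otx2 from -0.21 to 0.20 and Tshz1 from -0.089 to 0.050.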
